A study of Rattus norvegicus with 56 samples.

Results

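MiR-6329, miR-3473, miR-3553 and miR-3557-5p are microRNAs with late registry numbers (rat names above miR-3000), and their names were looked up, with the species prefix removed, in the read counts of all deposited tables. They were chosen for low p-values in DMO-exposed myocardium or amniotic fluid, so their differences between the groups of those tissues are given as a description, with no test. All 4 were found among the 682 microRNAs listed in any table. Amniotic fluid listed all 4 (of 523 microRNAs), myocardium listed miR-6329 and miR-3473 (of 661), and maternal serum listed miR-3473 (of 518). MiR-3557-3p, from the other arm of the miR-3557 hairpin, was not listed in any of these tables.

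The samples came from Sprague-Dawley rats, with fetuses and dams sampled on embryonic day 19. Dams of the DMO group received dimethadione, a teratogenic metabolite of the anticonvulsant trimethadione, by repeated gavage in mid-gestation, and NC dams received distilled water. DMO-exposed fetuses were grouped by whether they had a ventricular septal defect (VSD) or not (non-VSD). Myocardium and amniotic fluid had 7 NC, 7 non-VSD and 7 VSD samples, and maternal serum had 7 NC and 7 VSD samples, which gives 56 in all. The dam of each fetus is not named in the labels, so fetuses of a group may share a litter and p-values measure the spread between these samples. Myocardium RNA came from wax blocks of fetal hearts. The myocardium and serum libraries were made with the TruSeq kit and those of amniotic fluid with the QIAseq kit, on another sequencer.

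The samples held between 1694811 and 9371130 counts in myocardium, between 147609 and 581350 in serum and between 78188 and 331787 in amniotic fluid. Levels are in CPM, counts scaled to a library total of 1000000, with the total adjusted by a TMM scaling factor unless stated. The limits given next use the library total only. Where a microRNA has 0 counts, its true level could reach 1.77 CPM in the smallest myocardium library, 20.3 CPM in that of serum and 38.4 CPM in that of amniotic fluid, for counting error only. In myocardium, NC replicate 2 stood apart from the other NC samples: the summed level of 6 heart and skeletal muscle microRNAs was 4079 CPM there and 26437 to 99040 CPM in the others, and that of 8 epithelial microRNAs was 14234 CPM against 251 to 5211 CPM. Of the VSD samples, replicates 1, 4 and 5 also had high epithelial sums, of 15250, 12120 and 11596 CPM. Their muscle sums were 5426, 7311 and 20214 CPM, so replicate 5 was like NC replicate 2 in the epithelial sum only. These 4 of 21 samples had an epithelial sum above 10000 CPM, a limit set after seeing the values. The fitted differences in myocardium are therefore also given without NC replicate 2, and those of the VSD group without all 4. All members of both lists were counted in each myocardium group.

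MicroRNAs are short RNAs cut from a hairpin transcript. Loaded into an Argonaute protein, a microRNA pairs with messenger RNAs mainly through its seed, bases 2 to 8 from the 5′ end, and lowers their translation and stability. Some microRNA genes are annotated on opposite strands of the same stretch of DNA, so that the mature RNA of one is the reverse complement of the other. The mature sequences of the 4 microRNAs are shown first because their seeds and their antisense partners bear on how the counts can be read. They are from RefSeq (GRCr8), with the seed in capitals.

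miR-6329: aAUGUGACucagcuaucugaaca

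miR-3473: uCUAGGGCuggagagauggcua

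miR-3553: cAGUGAAUucuaccagugccaua

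miR-3557-5p: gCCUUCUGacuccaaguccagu

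The 4 seeds differed from each other, and 0 other RefSeq mature microRNAs had any of them. MiR-6329 is encoded at chr8:61334292-61334314 on the minus strand, within the span of Rdx, the gene of the membrane-cytoskeleton linker radixin. MiR-3473 is encoded at chr13:42051730-42051751 on the plus strand, within the span of Zranb3, the gene of a DNA-remodelling enzyme of stalled replication forks. MiR-3553 is at chr4:59756105-59756127 on the plus strand, opposite Mir183. MiR-3557-5p is at chr18:57128924-57128945 on the plus strand, opposite Mir378 and within the span of Ppargc1b, the gene of a transcriptional coactivator of mitochondrial metabolism.

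MiR-3553 and miR-3557-5p are near-complete reverse complements of abundant microRNAs. MiR-183-5p, known from sensory and epithelial cells, pairs with miR-3553 over 22 bases, and miR-378a-3p, a microRNA of heart and muscle metabolism, pairs with miR-3557-5p over 21 bases. The paired bases are in capitals below.

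miR-3553: cAGUGAAUUCUACCAGUGCCAUA

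miR-183-5p: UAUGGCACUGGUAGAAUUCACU

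miR-3557-5p: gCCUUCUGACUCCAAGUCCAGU

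miR-378a-3p: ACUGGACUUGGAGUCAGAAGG

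The longest stretch that miR-6329 could pair with in any other mature microRNA was 9 bases, and for miR-3473 it was 8 bases. MiR-3473 differed from the other 3 in how often its letters recur. A stretch of 16 bases of its mature sequence, on either strand, stood in 95 of 33469 RefSeq promoter windows (0.284%), the highest number among 693 mature microRNA names. The next highest was 14 windows, for miR-466b-3p, and the windows held 0 such stretches of miR-6329, miR-3553 or miR-3557-5p. How reads that fit several places were counted is not given in the sources used here, so counts of miR-3473 may hold reads from other copies.

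In myocardium, miR-6329 was highest in the NC group. Its level ran from 43.5 to 139 CPM in the NC samples, with a median of 113 CPM. The non-VSD samples ran from 24.3 to 53.7 CPM (median 37.1 CPM) and the VSD samples from 12.8 to 51.8 CPM (median 29.9 CPM). All 7 samples of each DMO group lay below the NC median, and 4 non-VSD and 5 VSD samples lay below every NC sample. The groups overlapped through NC replicate 2, at 43.5 CPM, while the other NC samples were at 63.8 CPM or more. The lowest level, 12.8 CPM, was that of VSD replicate 3, which had the smallest library and 24 counts of miR-6329.

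The fitted log2 difference of miR-6329 was -1.60 (SE 0.32, n = 7 and 7) for VSD against NC and -1.24 (SE 0.27, n = 7 and 7) for non-VSD against NC. Without NC replicate 2, these were -1.77 and -1.37. Without the 4 samples rich in epithelial microRNAs, it was -1.54 (SE 0.37) in VSD myocardium. Both comparisons use the same NC samples. Between the DMO groups, the log2 difference of VSD against non-VSD was -0.32 (SE 0.29), and 5 of 7 VSD samples lay below the non-VSD median.

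MiR-3473 was highest in NC myocardium, at a mean of 54.1 ± 28.9 CPM (SD, n = 7). The non-VSD mean was 32.0 ± 10.4 CPM (SD, n = 7) and the VSD mean 18.98 ± 5.23 CPM (SD, n = 7). The NC samples spanned 16.03 to 93.7 CPM (median 51.0 CPM), the non-VSD samples 19.9 to 43.3 CPM (median 32.4 CPM) and the VSD samples 10.6 to 24.3 CPM (median 20.7 CPM). Scaled by TMM, all samples of both DMO groups were below the NC median. All 7 VSD samples were also below the non-VSD median, and 4 non-VSD samples were above every VSD sample. Only 2 VSD samples and 0 non-VSD samples lay below every NC sample, since NC replicate 2 was again the lowest of its group. Scaled by the library total only, the medians were 37.3 CPM (NC), 34.6 CPM (non-VSD) and 21.7 CPM (VSD). On that scale, non-VSD replicates 2, 6 and 7 lay above the NC median.

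The fitted log2 difference of miR-3473 was -1.51 (SE 0.35) in the VSD group, -0.71 (SE 0.35) for non-VSD against NC, and -0.75 (SE 0.32) for VSD against non-VSD. Without NC replicate 2, these were -1.72 (VSD) and -0.87 (non-VSD) against NC. Without the 4 samples rich in epithelial microRNAs, it was -1.52 (SE 0.34) for VSD against NC and -0.68 (SE 0.32) for VSD against non-VSD.

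**Figure D1:**
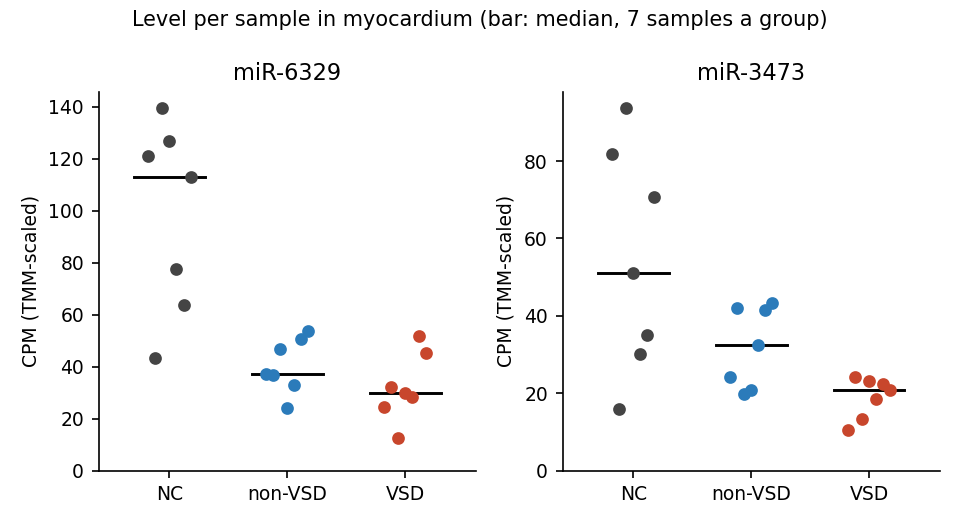
Level of miR-6329 (left) and miR-3473 (right) in myocardium, in CPM scaled by TMM, with a point for each of the 7 samples of a group and a bar at the group's median. The medians of miR-6329 were 113 CPM (NC), 37.1 CPM (non-VSD) and 29.9 CPM (VSD), and those of miR-3473 were 51.0, 32.4 and 20.7 CPM.

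The study called a microRNA at an unadjusted p under 0.05 and a change of 2-fold or more in either direction. That threshold is applied here to the fits by edgeR, not to the study's own values. In the VSD myocardium both microRNAs met this, where 6.82% of 469 microRNAs tested did. In the non-VSD myocardium miR-6329 met it, where 4.17% of 456 did, and between the DMO groups 0 of the 2 did, where 5.18% of 483 did. Without NC replicate 2 the shares of all microRNAs were 17.5% in the VSD and 5.49% in the non-VSD myocardium. Nothing can be read from these counts, since the same comparisons chose the microRNAs. The call of miR-6329 in the non-VSD group was lost with scaling by library size only (log2 difference -0.93) and with limma on log2(CPM + 1), also -0.93. The call of miR-3473 in the VSD group was lost with limma (-0.90). Scaling by library size only moved the median microRNA by 0.39 on the log2 scale in the VSD group and by 0.21 in the non-VSD group, and both microRNAs stayed lower than in the NC group under each scaling. The log2 difference of miR-3473 in the non-VSD group was then -0.415, and it was -0.328 with limma.

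Among the 18 tested microRNAs with numbers of 3000 or more, 5 were lower and 0 higher at that threshold in the VSD myocardium. The median log2 difference of the 18 was -0.33, against -0.05 over all 469 microRNAs, of which 12 were higher and 20 lower. The 18 and the 5 include miR-6329 and miR-3473 themselves. Both were chosen with these samples, so their part in these counts was set by that choice. In the non-VSD group, 2 of 18 were lower, miR-6329 among them, and 0 higher. The median was -0.21 against -0.07 over all 456, of which 8 were higher and 11 lower. Without NC replicate 2, a setting chosen after seeing the data, 6 of 19 were lower and 0 higher in the VSD group, with a median of -0.49 against -0.03 over all 474 (47 higher, 36 lower). In the non-VSD group, 2 of 18 were lower and 0 higher, with a median of -0.18 against 0.01 over all 455 (12 higher, 13 lower). In this setting too, the lower ones included miR-6329 in both groups and miR-3473 in the VSD group.

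Across the 21 myocardium samples, the microRNAs with the most similar pattern to miR-6329 were miR-148b-3p (Spearman's rho 0.87), miR-532-5p (0.86) and miR-125b-2-3p (0.83). For miR-3473 they were miR-185-5p (0.91), miR-486 (0.88) and miR-26a-5p (0.87). MiR-6329 and miR-3473 had a rho of 0.76 with each other. These values describe 21 samples that share group differences and scaling, and are given over 482 other microRNAs.

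Because miR-486 is a red blood cell microRNA, the summed levels of marker microRNAs are given beside these results. The 4 red blood cell microRNAs (miR-144-3p, miR-144-5p, miR-451-5p, miR-486) summed to 2651 to 91132 CPM in NC myocardium (median 33788), 3255 to 33984 CPM in the non-VSD group (median 7003) and 3435 to 25158 CPM in the VSD group (median 7522). The 4 white blood cell microRNAs had medians of 1523, 526 and 571 CPM in the same order, with ranges of 426 to 3758, 378 to 2033 and 278 to 1142 CPM. The 6 heart and skeletal muscle microRNAs had medians of 37450, 41715 and 20214 CPM. The 8 epithelial microRNAs had medians of 1366, 1697 and 3265 CPM, with ranges of 251 to 14234, 322 to 6580 and 1984 to 15250 CPM, so the highest median was that of the VSD group. All 4 of the 4 red and 4 of the 4 white blood cell markers were counted in each group.

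The level of miR-3473 over the 21 samples had a rho of 0.73 with the red blood cell sum, 0.73 with the white blood cell sum, 0.70 with the muscle sum and -0.75 with the epithelial sum. For miR-6329, these were 0.70, 0.71, 0.56 and -0.62. Without NC replicate 2 they were 0.70, 0.73, 0.66 and -0.72 for miR-3473 and 0.74, 0.73, 0.59 and -0.66 for miR-6329. The part of these cell types in the differences of miR-6329 and miR-3473 was not tested. In bulk tissue, fewer cells of a type and less RNA per cell cannot be told apart.

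In amniotic fluid, miR-3473 was among the most abundant microRNAs counted. It took between 1.33% and 13.1% of all counts in a sample, and ranked 1 of 523 microRNAs by mean level in NC, 2 in non-VSD and 3 in VSD samples. The level in the NC samples ran from 39139 to 94404 CPM (median 67838 CPM), in the non-VSD samples from 54784 to 117374 CPM (median 64653 CPM) and in the VSD samples from 15256 to 128275 CPM (median 59070 CPM). The groups overlapped widely, and the VSD group held both the lowest and the highest sample.

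The fitted log2 difference of miR-3473 in amniotic fluid was -0.08 (SE 0.37) in the VSD group, 0.29 (SE 0.26) in the non-VSD group and -0.33 (SE 0.35) for VSD against non-VSD. Without VSD replicate 2, the first was -0.37, and without VSD replicate 7 it was 0.09.

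MiR-3553 was lower in the non-VSD amniotic fluid. Its mean was 1814 ± 376 CPM (SD, n = 7) there, against 3736 ± 798 CPM (SD, n = 7) in NC fluid and 3508 ± 1283 CPM (SD, n = 7) in VSD fluid. The NC samples spanned 2613 to 5111 CPM (median 3649 CPM), the non-VSD samples 1278 to 2296 CPM (median 1948 CPM) and the VSD samples 2078 to 5083 CPM (median 3257 CPM). All 7 non-VSD samples lay below every NC sample and 6 lay below every VSD sample, while NC and VSD overlapped. MiR-3553 was chosen with these groups, and the share of all microRNAs that separate in this way was not computed. Nothing can therefore be read from the separation. The fitted log2 difference was -0.97 (SE 0.24) in the non-VSD group, -0.07 (SE 0.25) in the VSD group and 0.95 (SE 0.25) for VSD against non-VSD.

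MiR-3557-5p was higher in the non-VSD group. The NC samples ran from 558 to 2938 CPM (median 1273 CPM), the non-VSD samples from 1438 to 7182 CPM (median 3190 CPM) and the VSD samples from 420 to 4217 CPM (median 1583 CPM). All 7 non-VSD samples were above the NC median and 4 were above every NC sample, and the highest NC sample was replicate 5. The fitted log2 difference was 1.53 (SE 0.38) in the non-VSD group, 0.45 (SE 0.43) in the VSD group and -1.04 (SE 0.43) for VSD against non-VSD. In the VSD group, leaving out VSD replicate 2 gave 0.06 and leaving out NC replicate 5 gave 0.81.

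**Figure D2:**
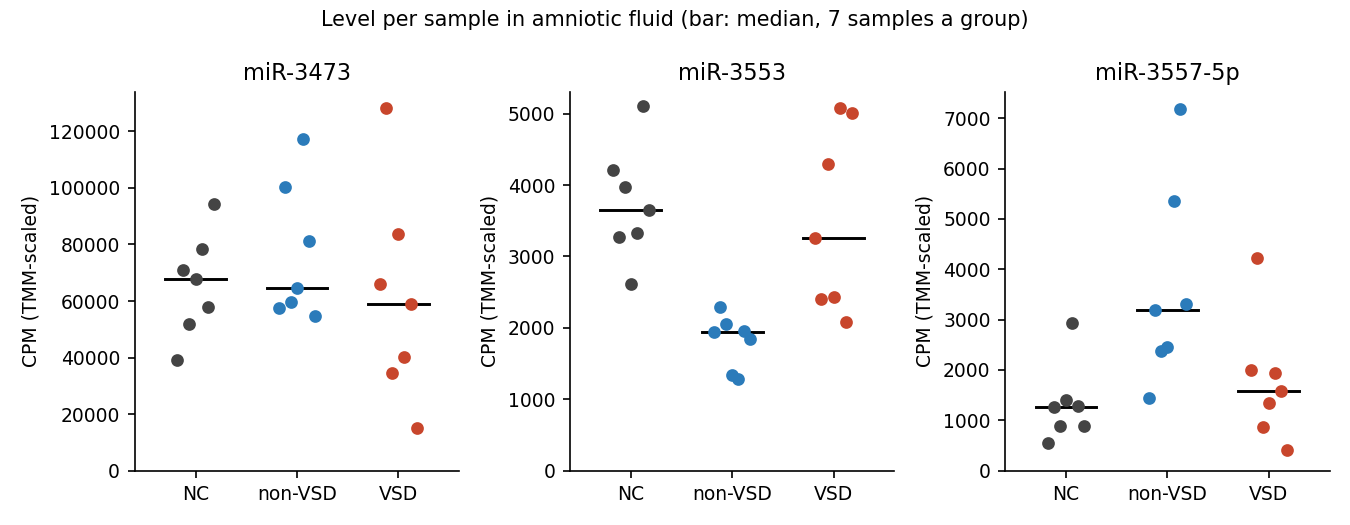
Level of miR-3473, miR-3553 and miR-3557-5p in amniotic fluid, in CPM scaled by TMM, with a point for each of the 7 samples of a group and a bar at the median. The 7 non-VSD samples of miR-3553 lie between 1278 and 2296 CPM, below all NC samples. Those of miR-3557-5p lie between 1438 and 7182 CPM, all above the NC median of 1273 CPM. Both microRNAs were chosen with these groups.

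MiR-6329 was near the limit of detection in amniotic fluid. It had 4 counts over the NC samples, all in replicate 5, 10 counts over the VSD samples, also in the replicate numbered 5, and 0 over the non-VSD samples. It was under the filter on low counts, so its differences are not given. With no filter it would be called for non-VSD against NC and for VSD against non-VSD, on the 4 and the 10 counts of those single libraries.

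Of the 3 that passed that filter in amniotic fluid, 0 met the study's threshold in the VSD group, where 6.94% of 245 microRNAs tested did. In the non-VSD group 1 did, miR-3557-5p, where 12.4% of 242 did, and miR-3553 was just under the fold change in the edgeR fit. Between the DMO groups miR-3557-5p alone of the 3 did, where 3.30% of 273 did. The call of miR-3557-5p between the DMO groups was lost in 3 of 8 other settings (log2 difference -0.98 to -0.99) and in 5 of 21 fits that left out a sample. MiR-3553 in the non-VSD group met the threshold in 3 of 8 other settings, with log2 differences down to -1.04, and in 6 of 14 fits that left out a sample, down to -1.11. Between the DMO groups it met the threshold in 0 of 8 other settings and in 4 of 21 such fits. By its own analysis, the study listed miR-3553 as downregulated and miR-3557-5p as upregulated in the non-VSD amniotic fluid. In myocardium it listed miR-6329 as downregulated in both DMO groups and miR-3473 as downregulated in the VSD group.

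In the non-VSD amniotic fluid, 5 microRNAs with numbers of 3000 or more were tested, of which 1 (miR-3557-5p itself) was higher and 0 lower, with a median log2 difference of 0.29 against 0.11 over all 242, of which 21 were higher and 9 lower. In the VSD group, 5 were tested and 0 met the threshold, with a median of -0.07 against -0.06 over all 245, of which 9 were higher and 8 lower.

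**Figure D3:**
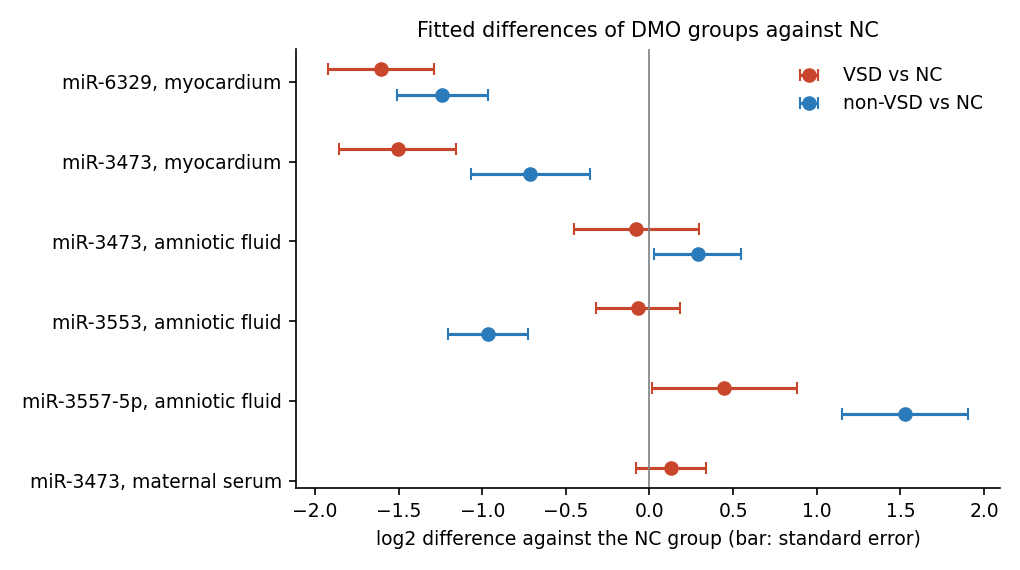
Fitted log2 difference of each microRNA from the NC group, with the standard error as a bar, for VSD (red) and non-VSD (blue) samples, 7 against 7. In myocardium the points lie between -1.60 and -0.71, and in amniotic fluid the largest differences are those of the non-VSD group, -0.97 for miR-3553 and 1.53 for miR-3557-5p.

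Summed over the 21 amniotic fluid samples, miR-3553 had 9790 counts and its antisense partner miR-183-5p 48191, and miR-3557-5p had 7029 counts and miR-378a-3p 9641. In myocardium, miR-183-5p had 119641 counts and miR-378a-3p 2973349, while neither miR-3553 nor miR-3557-5p was listed. In serum the partners had 6351 and 6011 counts, again with no listed antisense name. These partners were looked at after the values had been seen.

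Of the 12 microRNAs listed in amniotic fluid and in neither other tissue, 7 were antisense to another mature microRNA by at least 15 bases. Among the 4 with the most counts, 3 were: miR-409b, miR-3553 and miR-3557-5p. The last 2 are among the microRNAs chosen for this report. The rest of the 7, miR-3543, miR-3589, miR-3074 and miR-3595, had only 88, 13, 4 and 2 counts. Over all 693 RefSeq mature names, 92 (13.3%) were in such a pair, and 58 of the 523 microRNAs listed in amniotic fluid were. Both members of such a pair were listed for 12 of 46 annotated pairs in amniotic fluid, 8 in myocardium and 4 in serum. Whether the counting used the strand of a read is not given in the sources used here, and library kit and tissue change together, so reads of a microRNA and of its antisense partner cannot be told apart in these counts.

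The differences of the partners were set beside those of the microRNAs they face. MiR-183-5p had a log2 difference of -0.54 (SE 0.31) in the non-VSD amniotic fluid, 0.39 (SE 0.31) in the VSD group and 0.99 (SE 0.32) between the DMO groups. For miR-378a-3p these were 0.54 (SE 0.35), 0.62 (SE 0.43) and 0.12 (SE 0.42). Over the 21 samples, miR-3553 had a rho of 0.64 with miR-183-5p, which ranked 7 of 272 microRNAs by likeness, and miR-3557-5p had a rho of 0.53 with miR-378a-3p, which ranked 12.

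Per 100 counts of miR-183-5p, there were 14.9 to 42.8 counts of miR-3553 in the NC samples (median 26.2), 11.9 to 30.3 in the non-VSD samples (median 21.3) and 10.9 to 24.3 in the VSD samples (median 18.9), with wide overlap. Per 100 counts of miR-378a-3p, there were 25.2 to 172 counts of miR-3557-5p in the NC samples (median 37.6), 76.5 to 115 in the non-VSD samples (median 107) and 25.5 to 69.4 in the VSD samples (median 54.2). Every non-VSD sample was above every VSD sample in this ratio. The NC samples were split, with replicates 5 and 6 at 158 and 172 and the other 5 between 25.2 and 41.05. MiR-3557-5p was chosen with these groups and the ratio after seeing the values. How many other ratios would separate the groups was not computed, so nothing can be read from the separation.

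**Figure D4:**
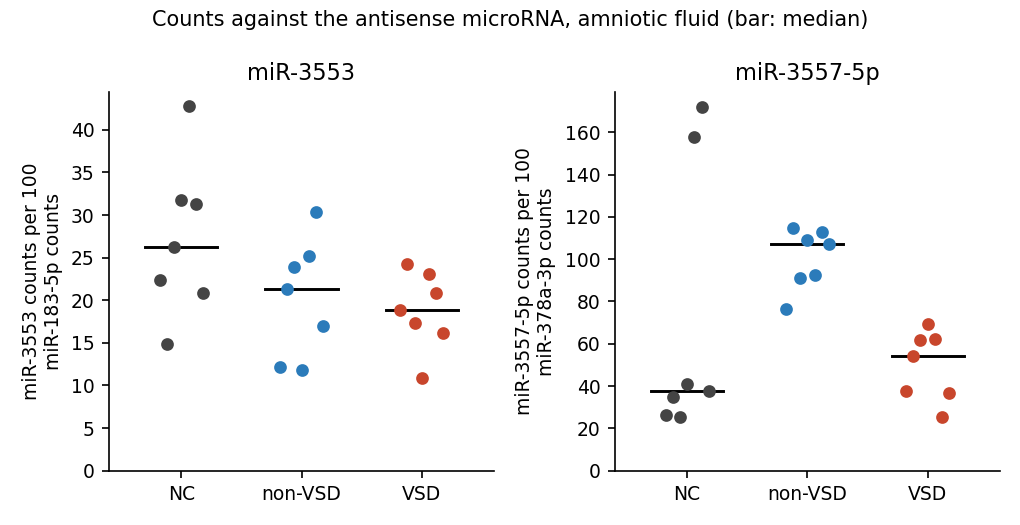
Counts of miR-3553 per 100 counts of miR-183-5p (left) and of miR-3557-5p per 100 counts of miR-378a-3p (right) in each amniotic fluid sample, with a bar at the median of each group of 7. In the right panel the non-VSD samples lie between 76.5 and 115 and the VSD samples between 25.5 and 69.4. MiR-3557-5p was chosen with these groups.

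The microRNAs most like miR-3553 over the 21 amniotic fluid samples were miR-196c-5p (rho 0.79), let-7e-5p (0.78) and miR-30e-3p (0.78). Those most like miR-3557-5p were miR-540-3p (0.81), miR-351-3p (0.70) and miR-423-3p (0.68). Those most like miR-3473 were miR-409a-3p (0.69), miR-341 (0.61) and miR-3557-5p (0.60). MiR-3553 and miR-3557-5p had a rho of -0.72 with each other. Their fitted differences in the non-VSD group, -0.97 and 1.53, also have opposite signs, and both microRNAs were chosen with these groups. The rho values here describe 21 samples that share group differences and scaling, and none was computed within a group.

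Among marker microRNAs, the 4 of red blood cells summed to 15044 to 34791 CPM in NC amniotic fluid (median 22274), 25425 to 86089 CPM in the non-VSD group (median 63627) and 18119 to 143484 CPM in the VSD group (median 40405). The 8 epithelial microRNAs had medians of 114270, 73972 and 114859 CPM in the same order, with ranges of 89566 to 144438, 53400 to 121408 and 56903 to 152208 CPM. All 8 of the epithelial and all 4 of the red blood cell markers were counted in each group. MiR-3553 had a rho of 0.55 with the epithelial sum and -0.33 with the red blood cell sum over the 21 samples, and miR-3557-5p had -0.31 and 0.27. The 4 white blood cell microRNAs summed to 533 to 6604 CPM in the NC samples (median 2960), 1867 to 26683 CPM in the non-VSD samples (median 7321) and 1327 to 32392 CPM in the VSD samples (median 2812). The 6 heart and skeletal muscle microRNAs had medians of 166, 784 and 477 CPM in the same order. MiR-3557-5p had a rho of 0.15 with the white blood cell sum and 0.40 with the muscle sum, and miR-3553 had -0.34 and -0.24. The part of these cell types in the differences of both microRNAs was not tested.

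Maternal serum was not used in choosing the microRNAs, so miR-3473 was tested there, as the question of the study is whether fetal changes are seen in the mother's blood. The NC samples ran from 465 to 893 CPM (median 745 CPM) and the VSD samples from 472 to 1068 CPM (median 777 CPM). Of the VSD samples, 5 of 7 were above the NC median, and the groups overlapped. The log2 difference was 0.13 (SE 0.21), with a 95% interval of -0.31 to 0.57, which did not exceed the spread between samples (edgeR's quasi-likelihood test, Benjamini-Hochberg adjusted p = 0.808). An exact two-sided permutation test of the mean log2 level, scaled by library total, gave p = 0.376 over all 3432 groupings. Across the 219 microRNAs tested in serum, 0% (0 microRNAs) had an adjusted p under 0.05 by edgeR, 30 had an unadjusted p under 0.05, and DESeq2 called 4. Over the 14 serum samples miR-3473 had a rho of -0.74 with the red blood cell sum, which ran from 66896 to 192847 CPM in the NC and from 43932 to 111143 CPM in the VSD samples, and its part was not tested. The other 3 microRNAs were not listed in serum.

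The level of miR-3473 also differed between tissues. Scaled by the library total only, it was at 43.5 ± 19.2 CPM (SD, n = 7) in NC myocardium and 706 ± 175 CPM (SD, n = 7) in NC serum, with every myocardium sample below every serum sample. Over the 382 microRNAs tested in both, the log2 difference of myocardium from serum was -4.21 (SE 0.35, edgeR's adjusted p = 7.59e-09), or 18.5-fold lower, with a 95% interval of 11.1 to 30.8. The exact permutation test gave p = 0.000583, the smallest it can give with 7 against 7 samples. Without NC replicate 2 of the myocardium the log2 difference was -4.25. With no filter on low counts it was -3.72. With at least 10 counts in every sample it was -3.452, just outside the interval, which is -4.944 to -3.467 on the log2 scale. Of all microRNAs tested, 78.0% differed between the tissues at an adjusted p under 0.05. RNA from wax blocks and from serum was also extracted with different kits, and the myocardium is of the fetus while the serum is of the dam. Tissue, extraction and fetus against dam cannot be told apart. Median library totals also differed, at 6876536 counts in NC myocardium and 496237 in NC serum. NC amniotic fluid, at 65953 ± 18867 CPM (SD, n = 7) on the same scale, had another library kit and was not compared.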

How the data were processed

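Small RNA libraries of 56 rat samples were sequenced by the study. The authors filtered the reads, after conversion with bcl2fastq 2.19 per the submitters' processing notes, and deposited counts of reads per mature microRNA for each sample. The aligner, annotation, build and use of strand are not given in the sources used here. The tables also hold 74 columns of normalized values and group means, and the authors' fold changes and p-values, which were not used.

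Groups came from the labels. Counts were filtered by filterByExpr, scaled by TMM and fitted by edgeR 4.0.16 (quasi-likelihood test, Benjamini-Hochberg adjustment over all microRNAs tested, R 4.3.3), 7 against 7 samples, and VSD was set against non-VSD in 1 fit of the 3 groups. Levels in CPM are scaled by TMM within a tissue unless stated, with a prior count on the log2 scale for correlations. The NC counts of a tissue were the same in both of its tables (0 values differed). The fit was tested on simulated data. Alternatives were DESeq2 1.42.0, limma 3.58.1, other scalings and filters, the replicate number as a block, other sets of groups in a fit, and leaving out each sample.

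The microRNAs and lists were chosen with earlier results of these data known. Those named are the 4 members, the other arm of a member's hairpin, microRNAs sharing a seed, and the 3 most alike by Spearman's rho in each tissue. Antisense partners, promoter matches and microRNAs of 1 tissue were added after seeing the values. Sequences are from RefSeq (GRCr8), which held 4 of the 4 members and 617 of 682 listed names. Figures used matplotlib.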

Additional observations from a re-analysis of the deposited data

How the results depend on the processing

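In myocardium and amniotic fluid, no member's log2 difference moved by more than the replicate spread under another tool, scaling, filter or set of groups. The calls of members that these settings changed stand beside the results. The log2 difference of miR-3473 in serum lay between 0.12 and 0.19 over these settings. Between the tissues it was -3.45 with at least 10 counts in every sample, against -4.21. When each sample was left out once, the log2 differences in myocardium ran from -1.80 to -1.55 (VSD), -1.37 to -1.14 (non-VSD) and -0.46 to -0.23 (VSD against non-VSD) for miR-6329, and from -1.72 to -1.40, -0.87 to -0.53 and -0.87 to -0.64 for miR-3473. In amniotic fluid they ran from -0.37 to 0.09, 0.14 to 0.41 and -0.62 to -0.16 for miR-3473, from -0.19 to 0.05, -1.11 to -0.84 and 0.84 to 1.10 for miR-3553, and from 0.06 to 0.81, 1.23 to 1.85 and -1.42 to -0.78 for miR-3557-5p. In serum, miR-3473 ran from -0.018 (without NC replicate 2, where its direction turned) to 0.28, and between the tissues from -4.52 to -4.03.

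Counts of microRNAs called moved more, and the cause was not tested except where fewer or more microRNAs entered the test. With no filter on low counts, the 32, 19 and 25 called in myocardium (VSD, non-VSD, VSD against non-VSD) were 52, 35 and 40, the 17, 30 and 9 in amniotic fluid were 84, 109 and 88, and the 0 in serum were 3. With at least 10 counts in every sample, VSD myocardium gave 21, VSD against non-VSD myocardium 13, VSD amniotic fluid 11, VSD against non-VSD amniotic fluid 5, and the tissues 142 in place of 298. Limma gave 67 in VSD myocardium and 14 for VSD against non-VSD amniotic fluid, and DESeq2 gave 4 in serum. The limma and 10-count settings were added for these counts after seeing the data. Leaving out the 3 VSD samples rich in epithelial microRNAs gave 20 for VSD against NC and 8 for VSD against non-VSD myocardium, and leaving out NC replicate 2 as well gave 34 and 11, settings also added after seeing the data. Leaving out a sample gave 27 to 83 (83 without NC replicate 2), 16 to 26 and 16 to 37 in myocardium, 14 to 22, 25 to 37 and 7 to 16 in amniotic fluid, 0 to 2 in serum and 243 to 315 between the tissues. The counts that moved by over 1.5 times besides were those without VSD replicate 1 or non-VSD replicate 1 for VSD against non-VSD myocardium, without VSD replicate 2 or 6 or non-VSD replicate 1, 2 or 4 for VSD against non-VSD amniotic fluid, and without NC replicate 2 or VSD replicate 6 in serum. With scaling by library size only, 33 were higher and 12 lower in VSD myocardium, against 12 and 20, and 16 and 4 in the non-VSD group, against 8 and 11.

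With the replicate number as a block, 14 were called for VSD against non-VSD myocardium, 19 for non-VSD amniotic fluid and 5 in serum. Same-numbered samples deviated together (correlation over 0.1) in between 0 and 5 of 7 pairs. The highest, 5 of 7 with a median correlation of 0.15, held for VSD against non-VSD myocardium and for VSD against NC serum. The numbers were not taken as pairing, which these values cannot exclude for those comparisons. The log2 difference of miR-3473 in serum was 0.13 with the block (adjusted p = 0.832), and its adjusted p lay between 0.697 and 0.901 over the settings that kept all samples.

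Depth limits amniotic fluid most, where miR-6329 is at or under the limit of a count of 0 in most samples.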
